A study of Homo sapiens with 10 samples.

Results

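The genes described here encode the machinery that licenses replication origins, unwinds and copies DNA at the fork, and supplies deoxynucleotides. The 51 members were chosen by gene name from the 62700 genes of the deposited table, and all 51 were found and passed the filter on low counts. They were divided by role into 12 groups: the origin recognition complex, the helicase loaders and their inhibitor, the MCM2-7 helicase, MCM8 to MCM10, CDC45 with the GINS complex, the CDC7 kinase, PCNA with its loader RFC, RPA, the primase with polymerase alpha, polymerases delta and epsilon with FEN1, deoxynucleotide synthesis, and cyclin E with CDC25A. RNA came from RPE p53-/- cells, human cells of retinal pigment epithelial origin, and p53 is lost in both genotypes. The study set 5 parental control samples beside 5 samples in which CCAR1, whose product the series title calls a splicing factor, was knocked out, to look for effects across the genome. Both genotypes were grown in DMEM/F12 with 10% fetal bovine serum. The labels do not say whether the knockout cells are 1 clone or whether replicates were separate cultures, so p-values speak of the spread among these libraries, and that spread may be technical.

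Replication begins in G1, when the origin recognition complex with CDC6 and CDT1 loads the MCM2-7 helicase onto DNA. Geminin, encoded by GMNN, blocks further loading after G1. At the start of S phase the CDC7-DBF4 kinase and cyclin E activity let CDC45 and GINS join MCM2-7 to form the active helicase. Polymerase alpha with its primase starts each strand, the RFC complex loads the PCNA clamp, and polymerases delta and epsilon extend the strands while RPA covers single-stranded DNA. Many of these genes are known targets of E2F transcription factors, which rise in activity before S phase.

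Levels are in CPM (counts per 1e6 after library scaling) and are not comparable between genes because they are not divided by transcript length. The 3 libraries of replicates 1 to 3 in each genotype are called shallow, with 52.6 to 65.2 M counts each, and the 2 of replicates 4 and 5 are called deep, with 320.6 to 385.4 M counts. Members had 8422 (POLE2) to 1086836 (RRM2) counts summed over the 10 libraries. CCAR1 itself was at 125, 133, 134, 173 and 173 CPM in parental replicates 1 to 5 and at 92.3, 95.6, 88.5, 126 and 126 CPM in the knockout libraries, 71.4% of the parental level on average (edgeR adjusted p = 0.0201, 0.0504 without parental replicate 5, 0.0525 when scaling used library size only, and 0.121 with the chromosome median removed, at a log2 fold change of -0.31). At either depth the knockout libraries were the lower ones, while the pooled ranges met. Of 11 retinal pigment epithelium markers 9 had counts in all 10 libraries, yet the summed level of 54.0 to 79.9 CPM came mostly from MITF, OTX2 and RDH5. RDH5 was at 6.08 to 7.67 CPM in parental and 10.8 to 17.8 CPM in knockout libraries, and OTX2 at 10.06 to 11.77 and 14.85 to 18.3 CPM. MITF overlapped between genotypes, at 33.3 to 46.4 CPM in parental and 30.9 to 47.1 CPM in knockout libraries. TYRP1, near the floor, went the other way, at 0.124 to 0.248 CPM in parental and 0.0186 to 0.0577 CPM in knockout libraries. The defining visual cycle gene RPE65 was at 0.189 CPM or below in every library. Transcripts of skeletal muscle, erythroid cells and liver summed to 346.3 to 671.3 CPM in the shallow libraries of both genotypes and to 2.20 to 3.48 CPM in the deep ones, and their part in the results was not tested. The epithelial genes KRT8, KRT18, KRT7 and EZR summed to 1523 to 1845 CPM in parental and 753.9 to 954.3 CPM in knockout libraries, mostly through EZR, and the part of this difference in the results was not tested either.

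Replication genes were lower in knockout cells more often than higher, and no member changed by as much as 2-fold in the fit over all 10 libraries. Of the 51 members 22 fell, 2 rose and 27 did not pass an adjusted p of 0.05 in edgeR's quasi-likelihood test, adjusted over 18979 genes. The share that fell was 43.1%, where 16.9% of all genes tested fell, and the share that rose was 3.92%, where 19.7% of all genes rose. All genes tested include noncoding genes and genes at lower levels than any member, so the 2 sets are not matched. A member that did not pass is not shown to be equal in the 2 genotypes. In either direction 47.1% of the members and 36.6% of all genes were past the threshold. The median log2 fold change (knockout over parental) was -0.23 for the members and 0.017 for all genes, and 42 of the 51 values were negative against 48.4% of all genes. Every knockout library was below every parental one for 18 of the 51 members (35.3%), which held for 14.6% of all genes, and above it for 2, which held for 16.0%, or 30.6% of all genes in either direction. Lower counts can come from fewer cells expressing a gene or from less RNA per cell, which cannot be told apart in these bulk samples.

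**Figure D1:**
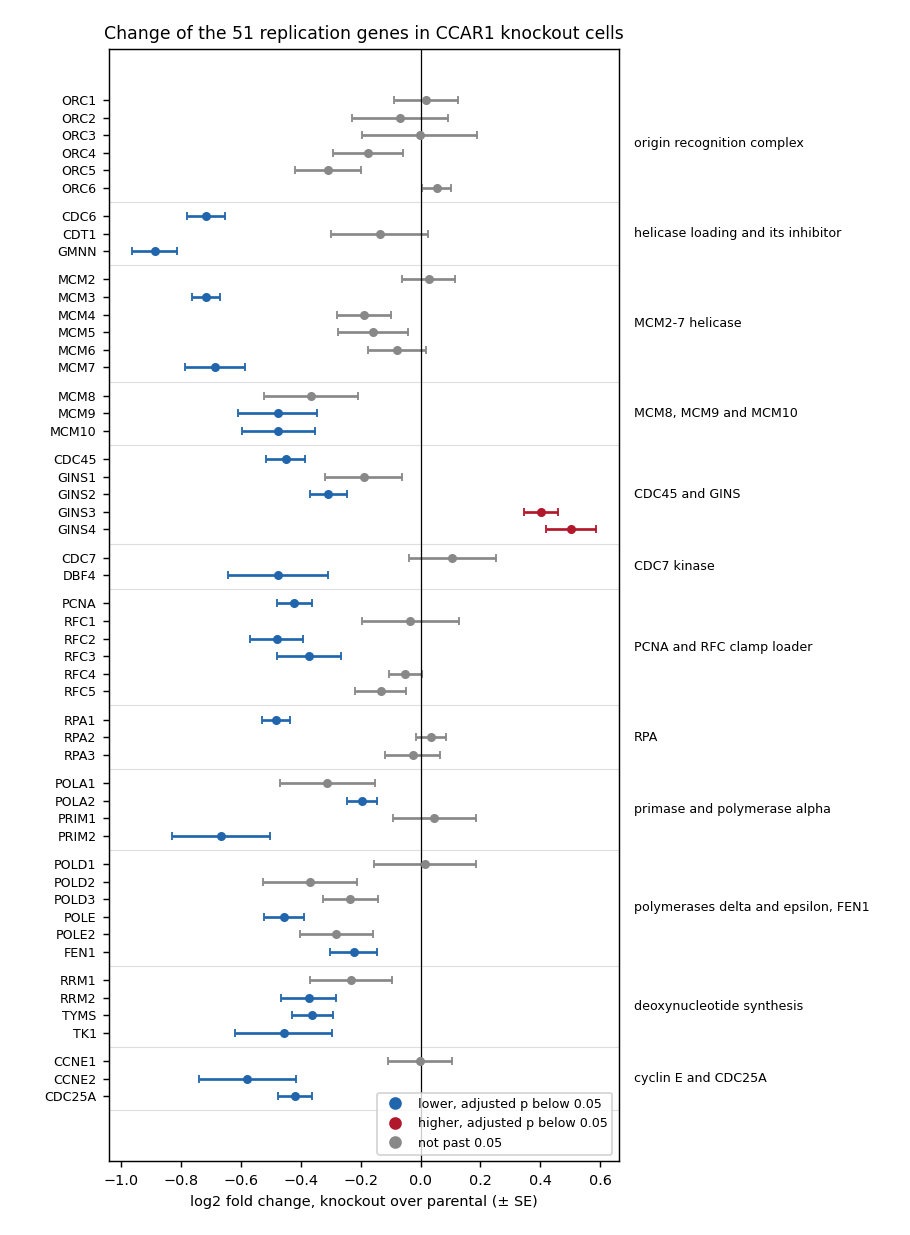
Log2 fold change of each of the 51 members in CCAR1 knockout over parental cells, with bars of 1 standard error from the edgeR fit over 18979 genes (n = 5 libraries per genotype), grouped by role. The 22 members that fell (blue) are spread over all groups but the origin recognition complex, and the 2 that rose (red) are GINS3 and GINS4.

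With the replicate number from the labels as a block, which takes up the difference between shallow and deep libraries, 35 members fell and 3 rose. That fit placed 30.1% of all genes lower and 31.1% higher, or 61.2% in either direction. All 24 calls above were kept, 13 members not past the threshold without the block passed as lower, and CDC7 passed as higher. The remaining 13 members passed in neither fit. The blocked adjusted p is given beside each member whose call it changes.

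None of the 6 subunits of the origin recognition complex, which marks the sites where helicases are loaded, passed the test, and the median log2 fold change was -0.036. ORC6, the smallest and most separate subunit, was at 125, 125, 125, 128 and 129 CPM in parental and 124, 131, 135, 132 and 135 CPM in knockout libraries (edgeR adjusted p = 0.442), and these ranges overlapped. ORC5, a core subunit encoded on chromosome 7, was at 23.03, 23.4, 23.99, 29.8 and 30.6 CPM in parental and 18.1, 21.1, 19.7, 23.1 and 23.7 CPM in knockout libraries. Every knockout library was below the parental libraries of its depth for ORC5, whose edgeR adjusted p was 0.0521 and, with the block, 0.000157. Its call also appeared with DESeq2 size factors (0.0335), with DESeq2 (0.0123) and without parental replicate 1 or 2 or knockout replicate 4 or 5 (0.0406, 0.0412, 0.0472 and 0.0411). With the median of chromosome 7 removed its log2 fold change was -0.01 (edgeR adjusted p = 0.959), and adding depth to that fit gave -0.02 (0.777). ORC4 was at 23.1, 25.2, 23.9, 31.6 and 31.2 CPM in parental and 22.04, 22.3, 21.2, 27.1 and 26.8 CPM in knockout libraries, with an edgeR adjusted p of 0.286 that became 0.00315 with the block. ORC1, ORC2 and ORC3 had log2 fold changes of 0.02, -0.07 and -0.0035, with standard errors of 0.11, 0.16 and 0.19, and did not pass with the block either.

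The helicase loader CDC6 and the loading inhibitor geminin both fell, and geminin showed the lowest fold change of all 51 members. GMNN (ENSG00000112312.10, hg38 chromosome 6, 24774931 to 24786099) was at 49.4, 47.6, 52.4, 50.9 and 52.5 CPM in parental libraries and at 27.2, 29.3, 30.6, 24.9 and 24.7 CPM in knockout libraries. No knockout library reached the lowest parental one, and the deep knockout libraries were the lowest. The mean went from 50.6 ± 2.09 to 27.4 ± 2.59 CPM (SD, n = 5), 54.1% of the parental level (log2 fold change -0.89 ± 0.075 (SE), edgeR adjusted p = 8.07e-06). The exact two-sided permutation p of its log2 CPM was 0.00794, the smallest that 5 against 5 libraries can give. CDC6 (ENSG00000094804.12, chromosome 17, 40287633 to 40304657), the ATPase that recruits MCM2-7 to ORC, was at 115, 119.9, 120.4, 131 and 134 CPM in parental and 75.2, 72.9, 71.1, 78.2 and 79.4 CPM in knockout libraries. Its ranges were apart, and in both genotypes the deep libraries were the highest (log2 fold change -0.72 ± 0.063 (SE), edgeR adjusted p = 1.08e-05). CDT1, the partner of CDC6 in loading and the protein that geminin binds, was at 84.2, 87.3, 91.7, 66.8 and 65.6 CPM in parental and 84.2, 83.2, 82.8, 56.1 and 53.5 CPM in knockout libraries. These ranges overlapped and CDT1 did not pass (edgeR adjusted p = 0.575), although it did as lower with the block (0.0184, log2 fold change -0.15).

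Of the 6 subunits of the MCM2-7 helicase MCM3 and MCM7 fell, and MCM2, MCM4, MCM5 and MCM6 did not pass. MCM3 (ENSG00000112118.20, chromosome 6, 52264009 to 52284881) was at 292, 280.5, 294, 284 and 294 CPM in parental and at 182, 180.0, 176, 170.5 and 171 CPM in knockout libraries. Within a genotype the shallow and deep libraries differed little, and the genotypes were far apart (log2 fold change -0.72 ± 0.047 (SE), edgeR adjusted p = 1.35e-06). MCM7 (ENSG00000166508.19, chromosome 7, 100092728 to 100101940) was at 810.4, 736, 770.1, 657 and 668 CPM in parental and 496, 510.2, 480.2, 389 and 388 CPM in knockout libraries. Here the deep libraries were the lowest of each genotype, and the ranges were still apart (log2 fold change -0.69 ± 0.10 (SE), edgeR adjusted p = 0.000384). MCM4 was at 344, 349, 345, 410.2 and 412 CPM in parental and 313, 303, 289, 362 and 366 CPM in knockout libraries (edgeR adjusted p = 0.139, and 0.00127 with the block), and it was lower within each depth only. MCM5 had a log2 fold change of -0.16 (edgeR adjusted p = 0.338, and 0.0056 with the block). MCM2 was at 251 ± 19.8 and 255 ± 28.5 CPM and MCM6 at 109 ± 13.4 and 103 ± 9.72 CPM, with log2 fold changes of 0.03 and -0.08 (standard errors 0.089 and 0.097), and neither passed with the block. An antisense gene shares 22.7% of the exon bases of MCM2.

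**Figure D2:**
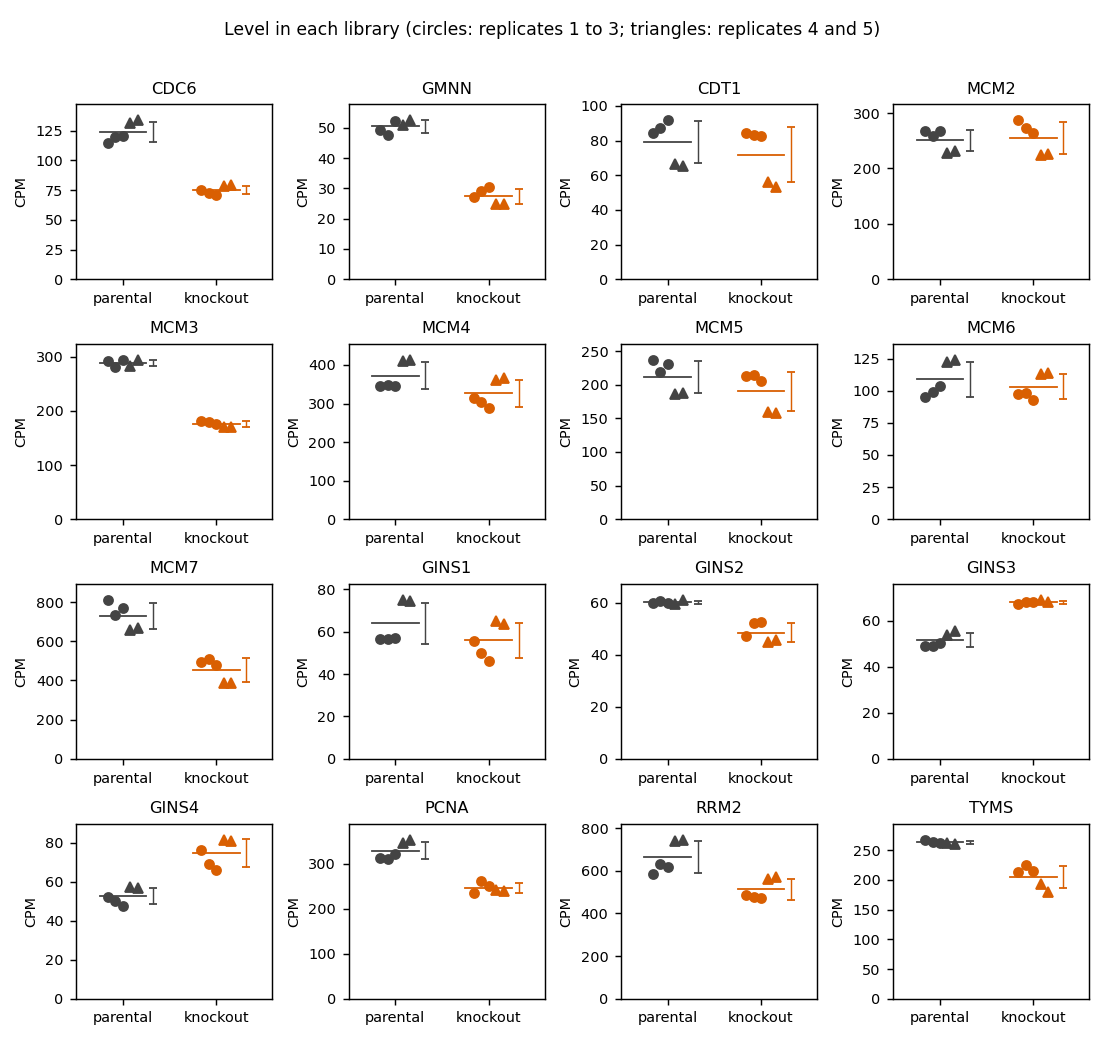
Level of 16 members in CPM (vertical axes from 0) in each parental (grey) and knockout (orange) library, with the mean as a line and the SD as a bar (n = 5). CDC6, GMNN, MCM3 and MCM7 are lower and GINS3 and GINS4 higher in every knockout library than in any parental one, while the libraries of MCM2 and MCM6 overlap.

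Since the helicase holds 1 copy of each of these subunits, the share of their summed level was followed. The summed level of the 6 transcripts was 2048, 1942, 2012, 1888 and 1917 CPM in parental and 1589, 1580.0, 1509, 1418 and 1424 CPM in knockout libraries, with no overlap. MCM7 gave 37.1 ± 2.15% of the sum in parental and 30.01 ± 2.45% in knockout libraries, and MCM3 went from 14.7 ± 0.432% to 11.7 ± 0.301% (mean ± SD, n = 5). MCM2 went from 12.8 ± 0.652% to 16.9 ± 1.02%. For these 3 subunits the shares of the genotypes did not overlap. Those of MCM4, MCM5 and MCM6 overlapped over all libraries, but within the shallow and within the deep libraries every knockout share was above every parental one. MCM4 took 16.8, 17.96, 17.2, 21.7 and 21.5% in parental and 19.7, 19.2, 19.2, 25.5 and 25.7% in knockout libraries. A share says only that subunits changed unequally, because a fall of one raises the others. Shares here and for GINS below are not shares of molecules, because CPM is not divided by transcript length and longer transcripts weigh more.

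Promoters of 4 members are shown because they carry the E2F motif and belong to genes that fell (MCM3, CDC6), did not pass (MCM6) or rose (GINS3). The sequences are RefSeq's on GRCh38.p14, 250 bases before to 50 after the RefSeq start, which can differ from the GENCODE start, and are written 5′ to 3′ on the gene's strand. Capitals mark every match to TTTCGCGC, TTTGGCGC, TTTCCCGC or TTTGCCGC on either strand, and matches may overlap. MCM3 lies on the minus strand at chr6:52284693-52284992, CDC6 on the plus strand at chr17:40287629-40287928, MCM6 on the minus strand at chr2:135876394-135876693 and GINS3 on the plus strand at chr16:58392221-58392520.
MCM3: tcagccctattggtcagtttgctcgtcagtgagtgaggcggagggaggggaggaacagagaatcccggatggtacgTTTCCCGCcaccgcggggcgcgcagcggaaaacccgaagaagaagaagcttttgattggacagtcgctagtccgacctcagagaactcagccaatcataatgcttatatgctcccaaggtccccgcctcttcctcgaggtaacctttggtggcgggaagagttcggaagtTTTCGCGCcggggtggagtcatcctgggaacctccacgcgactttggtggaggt
CDC6: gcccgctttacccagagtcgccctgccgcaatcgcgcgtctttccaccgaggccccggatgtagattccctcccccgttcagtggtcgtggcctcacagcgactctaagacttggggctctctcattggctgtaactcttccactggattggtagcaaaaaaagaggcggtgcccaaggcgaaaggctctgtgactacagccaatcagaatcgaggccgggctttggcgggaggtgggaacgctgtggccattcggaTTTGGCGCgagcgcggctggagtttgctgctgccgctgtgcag
MCM6: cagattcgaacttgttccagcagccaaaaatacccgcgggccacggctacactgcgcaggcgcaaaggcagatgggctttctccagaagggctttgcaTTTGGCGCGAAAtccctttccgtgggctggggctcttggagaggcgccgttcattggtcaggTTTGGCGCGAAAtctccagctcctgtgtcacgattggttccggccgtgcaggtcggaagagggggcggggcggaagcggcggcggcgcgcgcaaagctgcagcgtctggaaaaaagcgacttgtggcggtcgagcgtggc
GINS3: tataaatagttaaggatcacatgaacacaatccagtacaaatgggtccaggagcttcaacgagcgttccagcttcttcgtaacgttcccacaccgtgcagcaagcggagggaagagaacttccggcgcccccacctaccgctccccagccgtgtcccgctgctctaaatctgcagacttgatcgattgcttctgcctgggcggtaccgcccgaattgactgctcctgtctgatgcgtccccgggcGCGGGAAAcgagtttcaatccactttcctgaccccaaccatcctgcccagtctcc
MCM3 holds 2 matches, CDC6 and GINS3 hold 1 each, and MCM6 holds 4, which are overlapping pairs on both strands.

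Of the 44 members with a promoter in that table, 17 (38.6%) held at least 1 match, against 3.31% of all 35116 promoters of the same length. For each member 1 promoter was taken, that with the lowest start coordinate. All promoters were counted without that choice, so the 2 shares are not of like units. The share was 8 of 21 (38.1%) among members that fell and 8 of 22 (36.4%) among members that did not pass, and of the 2 that rose GINS3 was matched and held 1. The box CCAAT on either strand was found in 25 of 44 (56.8%) against 34.6% of all promoters, and TTTGAA, the core of the cell cycle homology region of mitotic genes, in 2 of 44 (4.55%) against 15.2%. A match describes the letters and is not evidence of a bound site.

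The replicative helicase also needs CDC45 and the 4 GINS subunits, and here the members moved in opposite directions. CDC45, which fell, was at 59.2, 59.4, 56.7, 54.5 and 55.8 CPM in parental and 42.03, 44.5, 45.03, 38.95 and 38.5 CPM in knockout libraries (log2 fold change -0.45 ± 0.065 (SE), edgeR adjusted p = 0.000338). GINS3, or PSF3 (ENSG00000181938.14, chromosome 16, 58295080 to 58406144), was at 49.02, 49.2, 50.4, 53.8 and 55.8 CPM in parental and at 67.3, 68.1, 68.3, 69.1 and 68.3 CPM in knockout libraries. The knockout libraries were within a narrow band above every parental library, a 1.32-fold rise (log2 fold change 0.40 ± 0.056 (SE), edgeR adjusted p = 0.000274). GINS4, or SLD5 (ENSG00000147536.12, chromosome 8, 41529206 to 41545046), was at 52.4, 50.02, 47.8, 57.2 and 56.6 CPM in parental and 76.2, 68.9, 65.9, 81.5 and 81.1 CPM in knockout libraries, a 1.42-fold rise (edgeR adjusted p = 0.000854). GINS2 fell 1.24-fold, from 60.2 ± 0.668 to 48.6 ± 3.56 CPM (edgeR adjusted p = 0.00275). GINS1 was at 63.9 ± 9.79 and 55.98 ± 8.20 CPM (edgeR adjusted p = 0.291, and 0.00385 as lower with the block). The summed level of the 4 GINS transcripts was 228 ± 16.6 and 248 ± 12.04 CPM, which overlapped over all libraries and was higher in each knockout library within either depth. The share of GINS4 went from 23.1 ± 0.660% to 30.1 ± 1.46% and that of GINS2 from 26.4 ± 1.84% to 19.7 ± 2.39%, with no overlap for any of the 4 subunits. Of the exon bases of GINS4 21.2% are shared with an antisense gene and of those of GINS3 10.9%, and both levels are uncertain because no source used here says if strand was counted.

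**Figure D3:**
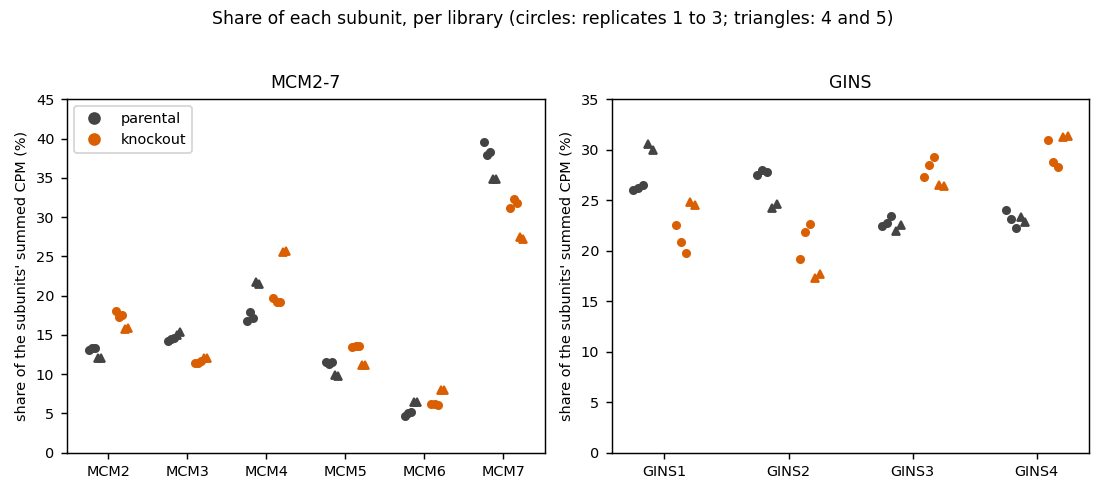
Share of each subunit in the summed CPM of its complex (%) in each parental (grey) and knockout (orange) library, for MCM2-7 and GINS. MCM3 and MCM7 take a smaller and MCM2 a larger share in knockout libraries, and GINS3 and GINS4 take a larger and GINS1 and GINS2 a smaller share.

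MCM10, which helps the loaded helicase to start, fell from 54.5 ± 6.18 to 39.2 ± 6.34 CPM, with libraries at 48.8, 51.1, 50.2, 61.3 and 61.1 CPM in parental and 36.9, 35.4, 31.97, 45.3 and 46.4 CPM in knockout cells (edgeR adjusted p = 0.0107). MCM9, which works with MCM8 in recombination rather than at the fork, was low at 6.46, 6.48, 6.95, 8.41 and 8.23 CPM in parental and 4.86, 4.46, 4.56, 5.94 and 6.39 CPM in knockout libraries, and fell (edgeR adjusted p = 0.0162). MCM8 was at 70.4, 74.2, 70.4, 97.02 and 96.4 CPM in parental and 55.1, 54.7, 51.7, 77.2 and 77.99 CPM in knockout libraries. The deep parental libraries stood above the rest, at either depth the knockout libraries were lower, and the pooled test did not pass (edgeR adjusted p = 0.0951, and 1.64e-05 with the block, 0.04 with DESeq2, and 0.0491 and 0.0473 without knockout replicate 4 or 5). Of the kinase that fires origins, the regulatory subunit DBF4 was at 40.3, 41.1, 40.7, 57.1 and 58.4 CPM in parental and 28.8, 29.4, 28.7, 42.2 and 41.6 CPM in knockout libraries and fell (log2 fold change -0.48 ± 0.17 (SE), edgeR adjusted p = 0.0465). Its pooled ranges overlapped, and its call was lost without any 1 of 5 libraries: parental replicate 4 or 5 or knockout replicate 1, 2 or 3 (0.105, 0.11, 0.0955, 0.094 and 0.0923). The catalytic subunit CDC7 was at 26.8, 29.7, 27.1, 37.9 and 37.6 CPM in parental and 29.7, 30.5, 29.4, 40.8 and 40.8 CPM in knockout libraries (edgeR adjusted p = 0.635, 0.0259 as higher with the block, but 0.175 with the chromosome median removed and depth as a term).

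The sliding clamp PCNA, which tethers the polymerases, and 2 of the 5 subunits of its loader fell. PCNA (ENSG00000132646.11, chromosome 20, 5114953 to 5126626) was at 313, 311, 322, 346 and 353 CPM in parental and 235, 262, 251, 241 and 239.9 CPM in knockout libraries. Its ranges were well apart (log2 fold change -0.42 ± 0.059 (SE), edgeR adjusted p = 0.000266), with values of -0.35 and -0.56 from the shallow and deep libraries alone. RFC2 was at 109, 105, 109.6, 95.6 and 100.4 CPM in parental and 77.6, 79.3, 85.2, 65.5 and 64.9 CPM in knockout libraries (edgeR adjusted p = 0.0016). RFC3 was at 52.4, 54.5, 56.03, 69.8 and 68.8 CPM in parental and 43.8, 44.7, 41.4, 51.8 and 51.3 CPM in knockout libraries (edgeR adjusted p = 0.0193, and 0.0594 with library size only). RFC1, the large subunit, RFC4 and RFC5 had log2 fold changes of -0.03, -0.05 and -0.13 and did not pass, and RFC5 did as lower with the block (edgeR adjusted p = 0.0127), though not with the chromosome median removed and depth as a term (0.183).

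RPA is a trimer that coats single-stranded DNA, and its large subunit fell while the others did not pass. RPA1 was at 193, 188, 188, 201 and 202 CPM in parental and 139, 142, 137, 139 and 139.7 CPM in knockout libraries. The knockout libraries differed by little from each other and lay far below the parental ones (log2 fold change -0.48 ± 0.048 (SE), edgeR adjusted p = 2.53e-05). RPA2 was at 119, 117, 122, 120.4 and 124 CPM in parental and 123, 129, 128, 118 and 119 CPM in knockout libraries, and the smallest subunit, RPA3, at 28.7, 30.6, 28.9, 29.7 and 32.8 and 24.98, 31.8, 34.7, 28.6 and 27.7 CPM. Both overlapped between genotypes and passed neither without nor with the block (edgeR adjusted p = 0.65 and 0.864 without it).

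Of the 4 genes of polymerase alpha and primase, the non-catalytic subunits POLA2 and PRIM2 fell. PRIM2, the large primase subunit, was at 29.01, 30.03, 31.1, 43.2 and 42.8 CPM in parental and 18.4, 20.97, 18.3, 27.0 and 26.4 CPM in knockout libraries, 63.0% of the parental level (edgeR adjusted p = 0.00898). POLA2 fell by less, from 85.5, 88.4, 86.97, 91.2 and 93.5 CPM in parental to 76.3, 76.9, 75.4, 79.9 and 80.5 CPM in knockout libraries. Its ranges were apart (log2 fold change -0.20 ± 0.051 (SE), edgeR adjusted p = 0.0122), and its call was lost with no filter on low counts (0.114) and when scaling used library size only (0.094). The catalytic subunit POLA1 was at 67.3, 66.1, 66.7, 86.8 and 86.7 CPM in parental and 51.6, 51.6, 47.4, 74.4 and 76.01 CPM in knockout libraries (edgeR adjusted p = 0.161, and 0.000245 as lower with the block). PRIM1, the catalytic primase subunit, was at 31.4 ± 5.36 and 32.4 ± 5.06 CPM (log2 fold change 0.05 ± 0.14 (SE)) and did not pass with the block either. Of the exon bases of POLA2 35.1% are shared with another gene model on the same strand, and the 2 can exchange counts.

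Among the polymerases that extend the strands, POLE, the catalytic subunit of the leading strand enzyme, fell. It was at 109, 112, 108, 99.7 and 98.01 CPM in parental and 77.2, 68.1, 80.3, 78.2 and 80.3 CPM in knockout libraries, with knockout replicate 2 lowest (log2 fold change -0.46 ± 0.067 (SE), edgeR adjusted p = 0.000384). FEN1, the nuclease that trims Okazaki fragments, was at 202, 203, 202, 180.5 and 187 CPM in parental and 171, 184, 183, 148 and 149 CPM in knockout libraries and fell by a margin at the threshold (log2 fold change -0.22 ± 0.08 (SE), edgeR adjusted p = 0.0496). Its call was lost without any 1 of parental replicates 1, 2, 3 and 5 (0.0952, 0.0959, 0.0976 and 0.0631) or knockout replicates 1, 4 and 5 (0.0741, 0.0928 and 0.0976). POLD3, a subunit of polymerase delta, was at 54.9, 57.7, 55.8, 68.5 and 68.9 CPM in parental and 48.6, 48.7, 48.5, 57.4 and 56.8 CPM in knockout libraries. Its shallow parental libraries were level with the deep knockout ones, and POLD3, POLD2 and POLE2 did not pass (edgeR adjusted p = 0.0742, 0.0927 and 0.0983) but did as lower with the block (0.000259, 0.000265 and 0.00319). The same 3 genes passed with DESeq2 (0.0185, 0.0438 and 0.0453). POLD2 on chromosome 7 was at -0.07 with the chromosome median removed (edgeR adjusted p = 0.788), and adding depth to that fit gave -0.10 (0.123). POLD1, the catalytic subunit of polymerase delta, was at 136 ± 24.5 and 137 ± 29.2 CPM (log2 fold change 0.01 ± 0.17 (SE)), and most of its spread lay between shallow and deep libraries.

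Genes of deoxynucleotide supply fell in 3 of 4 cases. TYMS, thymidylate synthase, was at 267, 263, 262, 262 and 260.2 CPM in parental and 213, 224, 215, 192 and 179 CPM in knockout libraries. The parental libraries were nearly equal at all depths, and every knockout library was lower (log2 fold change -0.36 ± 0.067 (SE), edgeR adjusted p = 0.00173). Of the exon bases of TYMS 39.1% are shared with ENOSF1 on the opposite strand, whose own level was 13.6 and 12.5 CPM in the 2 genotypes. RRM2, the regulated subunit of ribonucleotide reductase, was at 586, 632, 619, 741 and 745 CPM in parental and 485, 476, 470.5, 561 and 571 CPM in knockout libraries (log2 fold change -0.37 ± 0.092 (SE), edgeR adjusted p = 0.00893). Another gene model on the same strand shares 20.2% of the exon bases of RRM2. The large subunit RRM1 was at 298 ± 47.7 and 254 ± 42.4 CPM (edgeR adjusted p = 0.223, and 0.000261 as lower with the block). TK1, the thymidine salvage kinase, was at 326, 285, 295, 227 and 234 CPM in parental and 222, 238, 232, 152 and 153 CPM in knockout libraries. Its ranges overlapped, since the shallow knockout libraries were near the deep parental ones (edgeR adjusted p = 0.0474), and the call was lost without any 1 of parental replicates 1, 2 and 3 (0.106, 0.0876 and 0.0939) or knockout replicates 1, 4 and 5 (0.0583, 0.0852 and 0.0867).

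Of the 2 E-type cyclins, which activate CDK2 at the start of S phase, CCNE2 fell and CCNE1 did not pass. CCNE2 was at 26.1, 31.2, 28.9, 40.5 and 41.01 CPM in parental and 19.4, 19.8, 19.1, 27.6 and 26.3 CPM in knockout libraries (log2 fold change -0.58 ± 0.16 (SE), edgeR adjusted p = 0.017). CCNE1 was at 9.67, 9.82, 10.3, 8.99 and 8.79 CPM in parental and 10.03, 10.4, 11.1, 7.97 and 8.10 CPM in knockout libraries, a log2 fold change of -0.0013 with a standard error of 0.11. Whether the 2 cyclins differ from each other was not tested, and 37% of the exon bases of CCNE2 are shared with INTS8 on the opposite strand, which was at 54.7 and 41.0 CPM. CDC25A, the phosphatase that activates CDK2, was at 62.6, 63.2, 62.3, 68.3 and 67.9 CPM in parental and 48.1, 47.4, 46.5, 50.1 and 50.3 CPM in knockout libraries, with the ranges apart (log2 fold change -0.42 ± 0.056 (SE), edgeR adjusted p = 0.000197).

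Shallow and deep libraries placed many members at different levels. In parental cells 22 members were more than 1.2 times higher in the deep than in the shallow libraries and 5 were lower by that ratio. Each depth taken alone gave fold changes of the same sign for 43 of the 51 members and of opposite sign for the others (ORC1, ORC3, MCM2, RFC4, RPA2, RPA3, POLD1 and CCNE1), with a median of -0.25 from shallow and -0.29 from deep libraries. In the shallow libraries alone 31 members fell and 2 rose, against 26.2% and 26.5% of all genes tested there, and in the deep libraries alone 40 fell and 3 rose, against 28.1% and 28.9%. For 35 members every knockout library was below the parental libraries of its own depth, which held for 26.9% of all genes, and for 2 members, GINS3 and GINS4, every one was above, which held for 27.1%, or 53.9% of all genes in either direction. GMNN had a log2 fold change of -0.79 from shallow and -1.08 from deep libraries, POLE had -0.55 and -0.34, POLD2 -0.30 and -0.55, and CDT1 -0.08 and -0.29. Whether any member's change differs between depths was not tested.

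**Figure D4:**
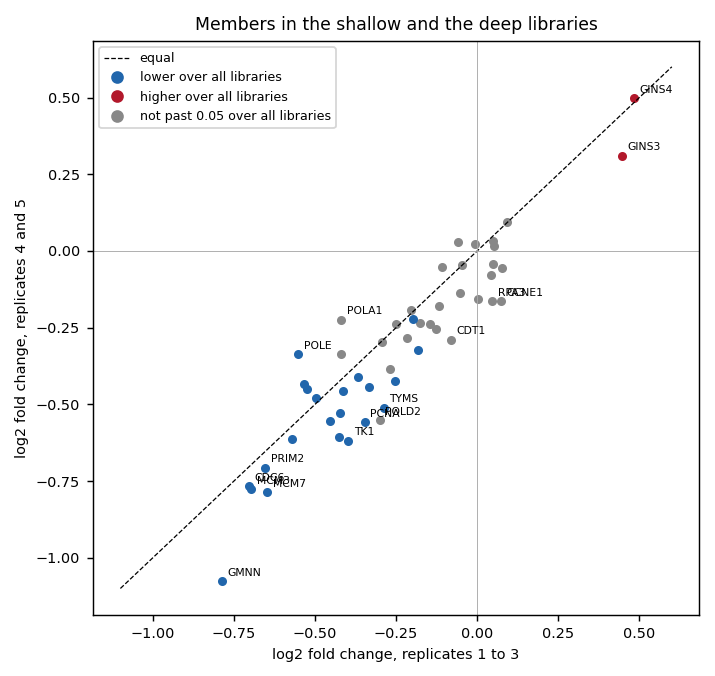
Log2 fold change of each member in the shallow libraries (replicates 1 to 3, horizontal) against the deep libraries (replicates 4 and 5, vertical), coloured by its call over all 10 libraries, with a line of equality. GMNN lies lowest on both axes, at -0.79 and -1.08, and GINS3 and GINS4 lie apart at the upper right.

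Members on chromosomes 6, 7, 13 and 17 fell more often than those elsewhere, as did other genes of these chromosomes. The protein-coding genes there had median log2 fold changes of -0.32, -0.30, -0.41 and -0.28, and 43.7% of them fell against 14.3% of the protein-coding genes on other chromosomes. These were the lowest medians among the autosomes and X in this same comparison. The larger share of falls on the 4 chromosomes is therefore not independent of their choice. Of the 15 members on these 4 chromosomes 11 fell, and of the 36 on others 11 fell and 2 rose, or 30.6% lower. When the median of each chromosome was taken out of the knockout libraries, 15 of the 22 members that had fallen were still past the threshold and 7 were not, and 13.5% of all genes were lower in that fit. Of these 7, 6 lie on the 4 chromosomes: MCM9 (log2 fold change -0.16, edgeR adjusted p = 0.426), PRIM2 (-0.34, 0.139), DBF4 (-0.18, 0.474), RFC2 (-0.18, 0.143), RFC3 (0.04, 0.832) and TK1 (-0.18, 0.464). The seventh is MCM10 on chromosome 10 (-0.30, 0.0842). Protein-coding genes of chromosome 10 had a median log2 fold change of -0.18, and 31.1% of them fell. GMNN, MCM3, MCM7, CDC6 and RPA1 on the 4 chromosomes remained lower, at -0.57, -0.39, -0.39, -0.44 and -0.20. With the chromosome median removed and depth as a term, 35 members fell and 5 rose (28.1% and 33.8% of all genes), and the falls of MCM9, MCM10, DBF4, RFC2, PRIM2 and TK1 passed again while that of RFC3 did not (edgeR adjusted p = 0.308).

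A closer background was taken from the protein-coding genes that start within 5 Mb of each member, of which there were 14 to 217. Of the 51 members 41 were below the median of these neighbours, where 50.2% of all 13996 protein-coding genes with such neighbours were below theirs. Geminin stood out from its surroundings: its 72 neighbours had a median log2 fold change of -0.04, against -0.89 for GMNN. For CDC6 the neighbours' median was -0.26, for MCM7 -0.26 and for PCNA, on chromosome 20, 0.17. DBF4, MCM9 and RFC3 were close to their neighbours, with medians of -0.45, -0.44 and -0.42 beside their own -0.48, -0.48 and -0.37. MCM3 and PRIM2 lie among genes that were themselves lower, with neighbour medians of -0.49 and -0.49. ORC3, also on chromosome 6, was level between genotypes although the median of its 33 neighbours was -0.37. GINS4 rose where the median of its neighbours was -0.11. Of the 22 members that fell, 21 were below the median of their neighbours and 13 below the lower quartile. GMNN, MCM7 and CDC6 were below that quartile, which was -0.40, -0.46 and -0.50. MCM3 and RPA1, at -0.72 and -0.48, lay between the quartiles of their neighbours. Those were -0.81 and -0.28 for MCM3 and -0.57 and 0.013 for RPA1, whose neighbours had a median of -0.33. What shifted these chromosomes was not tested.

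**Figure D5:**
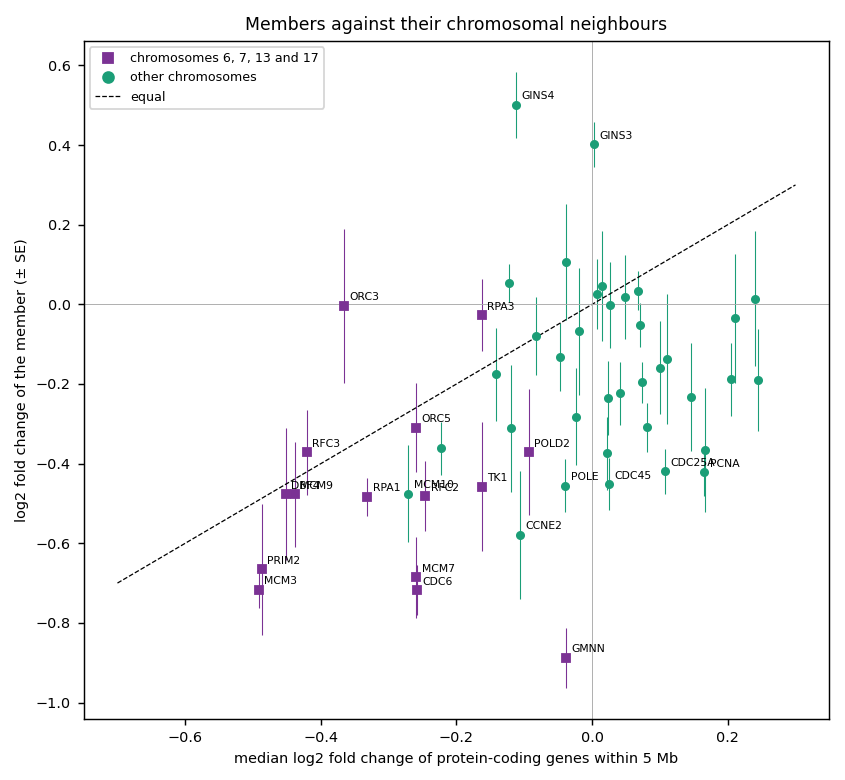
Log2 fold change of each member (vertical, bars of 1 standard error) against the median log2 fold change of the protein-coding genes starting within 5 Mb (horizontal), with a line of equality. Members on chromosomes 6, 7, 13 and 17 (purple squares) have neighbours below 0, MCM9 and DBF4 lie near the line, and GMNN lies far below it.

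A further 44 genes that act with the members were taken from the same processes. Of them 13 fell (29.5%, against 16.9% of all genes), 4 rose (9.09%, against 19.7%) and 27 did not pass, with a median log2 fold change of -0.18. With the block 28 fell and 5 rose, where 30.1% and 31.1% of all genes did, and with the chromosome median removed 9 fell and 3 rose, where 13.5% and 20% did. Of these 17 calls 7 were lost with the chromosome median removed. Among 12 genes of fork protection and origin firing DBF4B, MCMBP, DONSON and TIMELESS fell, or 4 against 11 with the block. The call of TIMELESS was lost without parental replicate 1, 3, 4 or 5 or knockout replicate 2 or 3 (edgeR adjusted p = 0.0626, 0.0523, 0.0634, 0.0687, 0.0584 and 0.0555), with no filter (0.226) and with the chromosome median removed (0.265). The same call was lost with library size only (0.225), with a filter of 1 CPM in 5 libraries (0.0571) and with the chromosome median removed and depth as a term (0.0728). The call of DONSON was lost without parental replicate 4 or 5 or knockout replicate 1 (0.0602, 0.0606 and 0.0501), with no filter (0.0822) and with library size only (0.0894). DBF4B, the second regulator of CDC7, was at 62.4, 64.8, 61.6, 55.1 and 56.8 CPM in parental and 42.8, 40.9, 42.9, 36.6 and 36.5 CPM in knockout libraries (edgeR adjusted p = 0.000143). MCMBP, which binds MCM subunits outside the loaded helicase, fell from 209 ± 18.7 to 151 ± 8.67 CPM (edgeR adjusted p = 0.000581). Of 16 other genes of nucleotide supply 4 fell and 2 rose, shares of 25% and 12.5%. CTPS1, a CTP synthase, had the smallest adjusted p of the 44, with 199, 200.3, 199.5, 210.2 and 217 CPM in parental and 140.1, 143, 143, 153 and 154 CPM in knockout libraries (edgeR adjusted p = 5.46e-05). IMPDH2, which commits nucleotides to guanine synthesis, rose from 286 ± 5.62 to 366 ± 8.69 CPM (edgeR adjusted p = 0.000137), and DCTD, which makes the dUMP that TYMS uses, rose from 108 ± 1.95 to 129.5 ± 6.78 CPM (edgeR adjusted p = 0.00275). Of 12 other polymerase, clamp loader and lagging strand genes 3 fell and 2 rose, shares of 25% and 16.7%. POLD4, the smallest subunit of polymerase delta, rose 1.81-fold, with 18.6, 16.1, 17.6, 12.4 and 13.2 CPM in parental and 28.2, 33.7, 35.5, 21.5 and 21.5 CPM in knockout libraries (edgeR adjusted p = 0.00341). Of the cyclin partners CDK2, CCNA2, FBXO5 and SKP2, 2 fell: CDK2 from 90.2 ± 3.37 to 72.7 ± 0.896 CPM and FBXO5, an inhibitor of the ubiquitin ligase that destroys geminin, encoded on chromosome 6, from 53.97 ± 8.37 to 35.2 ± 4.42 CPM (edgeR adjusted p = 0.000656 and 0.00254). The call of FBXO5 was lost with the chromosome median removed (-0.30, edgeR adjusted p = 0.0892).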

How the data were processed

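Polyadenylated RNA of 10 samples was sequenced. The authors deposited estimated counts (expected counts) per gene and library, not scaled for depth or length, made with kallisto 0.48.0 and hg38 per the submitters' processing notes; the sources used here do not name the annotation release, the step from transcripts to genes or strand handling. Because kallisto assigns ambiguous reads by likelihood, overlapping genes can exchange counts, and 19 members share at least 100 exon bases with another gene. Counts were rounded, genes kept by filterByExpr (18979 of 62700), libraries scaled by TMM and genotype fitted in edgeR 4.0.16 (R 4.3.3, limma 3.58.1, DESeq2 1.42.0) with a robust quasi-likelihood model, Benjamini-Hochberg adjustment over all genes and a threshold of 0.05. The fit was tested on simulated data. Standard errors come from the coefficient and its F statistic. Positions are from GENCODE on hg38, found for 95.1% of genes tested.

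The members, groups and lists were chosen with earlier results of these data known. Values in every library were given for up to 3 members per group with the smallest adjusted p, and any member could be named. Of the related genes the 3 with the smallest adjusted p in each direction had their values given, and others named among them were chosen after values were seen. Library pairs within a genotype and depth were not repeats of 1 library, with a chi-square of 6.71 to 25.5 per gene, and none was merged. Deviations from the genotype mean were correlated between samples of the same number (0.640, 0.584, 0.606, 0.899 and 0.894), which pairs them by the rule used. Samples of different number but the same depth correlated about as highly, at 0.594 to 0.659 if shallow and 0.892 and 0.901 if deep. Libraries of different depth correlated at -0.776 to -0.725, so the pairing follows depth and is not shown to follow the number. Intervals other than the standard errors are not given. No member was left out for low counts, but with depth as a term 14 members gained a call. The comparison with neighbours was added after seeing the data.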

Additional observations from a re-analysis of the deposited data

Results flagged for a closer look

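POLE in knockout replicate 2, at 68.1 CPM, lay apart from the other knockout libraries at 77.2 to 80.3 CPM, with a gap of 0.744 of the range of the 5 libraries. About 1 in 20 groups of 5 draws from 1 normal distribution would be marked in this way by chance. These groups mix shallow and deep libraries, so that rate need not hold here. RPA2 was higher in every knockout library than in the parental ones among the shallow libraries (log2 fold change 0.0758) and lower in every one among the deep libraries (-0.0567), and this difference was not tested.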

How the results depend on the processing

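The number of members that fell was 22 and moved to 35 with the replicate block and to 35 with depth as a term. It was 40 in the deep libraries alone. With the chromosome median removed and depth as a term it was 35, and the number that rose moved from 2 to 5. Fewer members fell with library size only (17), with no filter on low counts (19) and with the chromosome median removed without depth (15). A filter of 1 CPM in 5 libraries lost 3 calls and added none. Leaving out 1 library lost 1 to 3 calls and in some cases added others. Over all genes 3741 were higher and 3198 lower, with 5906 and 5713 under the replicate block, 6200 and 5949 with depth as a term, 7775 and 7545 in the deep libraries alone, 6407 and 5335 with the chromosome median removed and depth as a term, and 4931 lower in the shallow libraries alone. No call among the members was lost with the block. Directions that turned, with a call on 1 side at least, were POLD1 in the deep libraries alone (log2 fold change -0.079), RFC3, RPA3 and, with depth as a term as well, ORC3 with the chromosome median removed (RFC3 0.040 and, with depth, 0.044; RPA3 0.27 and, with depth, 0.26; ORC3 0.31), and POLD1 with the chromosome median removed and depth as a term (-0.16). In other fits 11 members, some of them among those just named, crossed 0 without a call. In the first fit, of genotype alone, none of the 11 was more than 0.068 from 0. Some then went further, such as ORC3 at 0.32 and POLD1 at -0.16 with the chromosome median removed (edgeR adjusted p = 0.25 and 0.539). The cause was not tested, except that dropping libraries or genes changes what is compared by construction. DBF4 and FEN1 lost their calls with no filter (edgeR adjusted p = 0.0737 and 0.0937), with a filter of 1 CPM in 5 libraries (0.0534 and 0.0828) and with library size only (0.1 and 0.0728), and TK1 with the last 2 (0.0623 and 0.0535).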
